A study of Mus musculus with 10 samples.

Results

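De novo purine synthesis builds the purine ring of ATP and GTP step by step on a ribose phosphate. The genes described here are Gart, which lies inside the segment that is triplicated in Dp5/Dp1 mice, and its partners Ppat, Paics, Pfas, Adsl, Atic, Gmps, Impdh2 and Hprt, which lie on other chromosomes. They were taken by name, 9 genes in all, and each was read from its brightest probe set with a single gene symbol. Of the 9, 8 had such a probe set, 1 each, among the 19938 genes measured, and Impdh2 was not analysed here. The level in the hippocampus was compared between 5 Dp5/Dp1 mice and 5 littermate controls.

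All mice were males of 16 weeks, and RNA of the whole hippocampus of each mouse was hybridised to 1 Affymetrix Mouse Gene 1.0 ST array. Dp5/Dp1 mice were compound transheterozygotes that carried the Dp5Yah duplication (Cyyr1 to Clic6) and the Dp1Rhr duplication (Cbr1 to Fam3b) of chromosome 16. Both are homologous to human chromosome 21, and the genes inside had 3 copies in every cell. For Cyyr1 the paper conflicts, as its methods also list this gene among those not in 3 copies in Dp5/Dp1. Controls carried neither duplication and came from the same cross. The arrays of all 5 controls, and none of the Dp5/Dp1 mice, are marked as re-analysed in the titles. What this mark stands for is not given, and any difference behind it cannot be told apart from genotype. The labels give a C57BL/6N background and the methods C57BL/6J. Because array titles of the Dp5/Dp1 mice put Dp5Yah first and give the double model only in brackets, both segments were checked. Dyrk1a, a gene of the Dp1Rhr segment, was at 11.89 or more on all 5 Dp5/Dp1 arrays and at 11.73 or less on all controls.

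Gart encodes a trifunctional enzyme that catalyses the second, the third and the fifth step of the pathway, and its human homologue lies on chromosome 21. Ppat starts the pathway by moving an amide nitrogen onto PRPP (phosphoribosyl pyrophosphate), Pfas adds nitrogen from glutamine, Paics and Adsl carry the intermediate on, and Atic closes the ring to give IMP. IMP is then turned into AMP or, through IMP dehydrogenase and Gmps, into GMP. Hprt returns hypoxanthine and guanine to the pool without new synthesis, and its loss causes Lesch-Nyhan disease in humans. In cultured human cells enzymes of the pathway can gather in clusters called purinosomes.

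The starts of these genes are shown because Gart shares the duplicated segment with its neighbour Son, whereas Ppat and Paics are neighbours outside it. RefSeq places the start of Son 851 bases from that of Gart, pointing away from it, while the spans of Ppat and Paics overlap by 277 bases at their starts. Promoter windows run from 250 bases before to 50 bases after the start (RefSeq, GRCm38.p6), and 8 of the 9 genes had one. Capitals mark the CCAAT box, the GC box (GGGCGG) and the E-box (CACGTG), on either strand.
Gart promoter, chr16:91646923-91647222, minus strand: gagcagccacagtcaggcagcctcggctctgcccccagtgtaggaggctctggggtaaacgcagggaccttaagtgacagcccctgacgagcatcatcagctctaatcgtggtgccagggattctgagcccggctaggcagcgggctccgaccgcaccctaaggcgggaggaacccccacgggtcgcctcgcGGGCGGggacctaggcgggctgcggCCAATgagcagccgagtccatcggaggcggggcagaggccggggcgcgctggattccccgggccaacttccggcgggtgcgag
Son promoter, chr16:91647574-91647873, plus strand: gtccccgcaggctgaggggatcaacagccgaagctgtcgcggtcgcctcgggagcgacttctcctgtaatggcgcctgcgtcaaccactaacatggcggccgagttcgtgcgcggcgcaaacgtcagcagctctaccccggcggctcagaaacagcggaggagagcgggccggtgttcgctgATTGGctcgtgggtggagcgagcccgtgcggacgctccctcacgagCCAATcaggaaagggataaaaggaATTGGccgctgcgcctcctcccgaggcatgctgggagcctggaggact
Ppat promoter, chr5:76951529-76951828, minus strand: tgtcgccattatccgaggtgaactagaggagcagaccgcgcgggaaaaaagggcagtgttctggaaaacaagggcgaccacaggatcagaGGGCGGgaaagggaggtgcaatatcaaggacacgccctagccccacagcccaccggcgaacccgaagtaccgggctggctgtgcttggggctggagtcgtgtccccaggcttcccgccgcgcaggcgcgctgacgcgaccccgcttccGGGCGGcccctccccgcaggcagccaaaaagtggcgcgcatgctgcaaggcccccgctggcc
Paics promoter, chr5:76951052-76951351, plus strand: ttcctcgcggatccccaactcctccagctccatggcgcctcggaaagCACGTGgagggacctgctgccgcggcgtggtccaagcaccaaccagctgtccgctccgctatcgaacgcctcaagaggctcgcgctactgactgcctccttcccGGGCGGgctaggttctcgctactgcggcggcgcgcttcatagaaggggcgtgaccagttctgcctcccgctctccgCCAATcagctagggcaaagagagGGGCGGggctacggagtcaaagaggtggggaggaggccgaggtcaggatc

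The Gart window held 1 CCAAT box and 1 GC box, with the CCAAT box starting 33 bases before the start. A CCAAT box was present in 37.4% of all 32851 promoter windows and in 4 of the 8 windows of the purine genes, namely those of Gart, Paics, Atic and Impdh2. The Son window held 3 CCAAT boxes. A GC box was found in 35.7% of all windows and in all 8 of the purine genes. The E-box CACGTG, a motif bound by MYC, occurred in 7.15% of all windows and in those of Paics, Atic and Impdh2 but not in that of Gart. The Gart window had 26 CpG dinucleotides, against a median of 7 over all windows. This was not particular to Gart. The windows of Ppat, Paics and Atic had 27 each, those of Adsl and Impdh2 24 each, Hprt 22, Gmps 15 and Son 31. These matches describe the letters only.

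Gart was overexpressed in the Dp5/Dp1 hippocampus, and none of the 7 other purine genes measured was. Gart (chromosome 16, 91621395 to 91646972, GRCm38) was at 9.65, 9.53, 9.62, 9.51 and 9.57 on the arrays of Dp5/Dp1 replicates 1 to 5, against 9.10, 9.09, 9.16, 9.18 and 9.03 in control replicates 1 to 5 (RMA log2 values). Every Dp5/Dp1 array lay above every control array, and the gap between the groups was wider than the spread within either. The means were 9.58 ± 0.06 in Dp5/Dp1 and 9.11 ± 0.06 in controls (SD, n = 5 each), a log2 difference of 0.47 ± 0.04 (SE; 1.38-fold; limma adjusted p = 0.000243 over all genes). Its unadjusted p was the fifth lowest of all genes. Genes called at an adjusted p under 0.05 made up 0.206% of all genes tested, 41 in number, and those whose groups were parted in the same way as those of Gart 0.762%. The 95% interval of the Gart difference, 0.38 to 0.55, lay below 0.585, which is log2 of 1.5, the ratio of 3 copies to 2. Without Dp5/Dp1 replicates 2 and 5 its upper bound was 0.59.

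**Figure D1:**
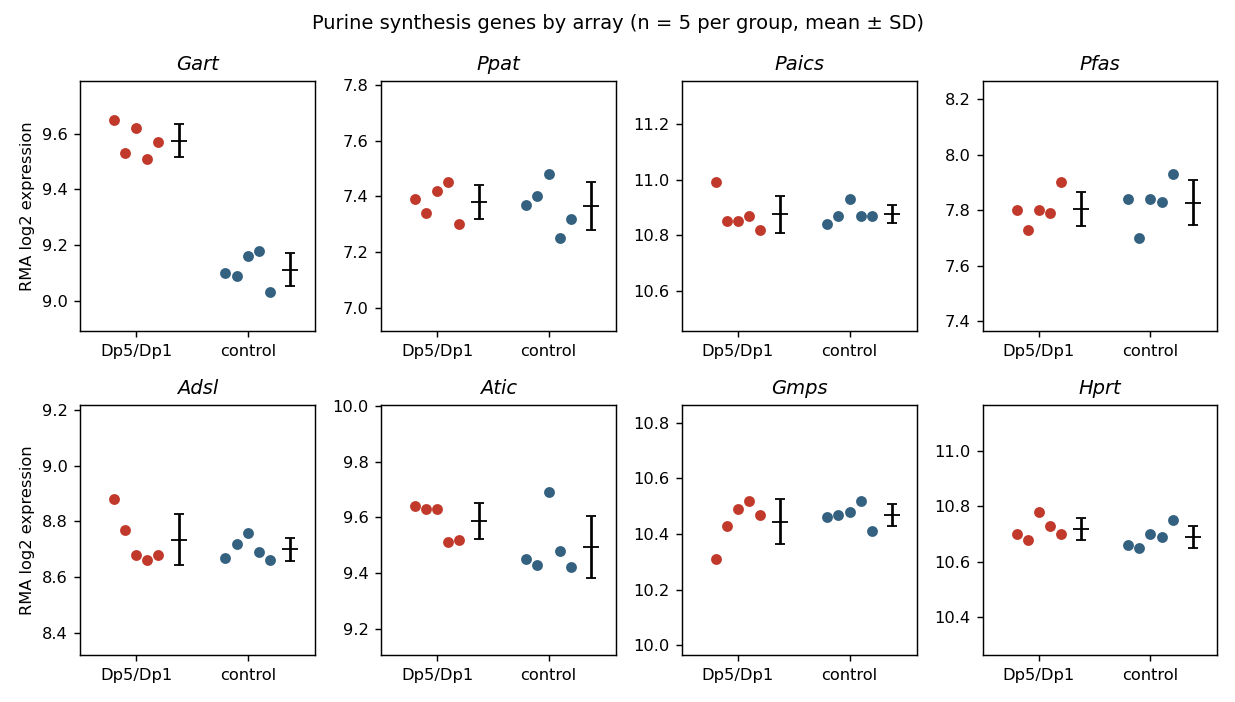
RMA log2 expression (y axis) of the 8 purine genes on each array, Dp5/Dp1 left and control right; points are arrays in order of replicate number, bars give mean ± SD (n = 5), and all panels span the same range of log2 values. Gart alone separates the groups, with Dp5/Dp1 arrays from 9.51 to 9.65 and control arrays from 9.03 to 9.18.

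Ppat, the amidotransferase of the first committed step (chromosome 5, 76913249 to 76951578), did not follow Gart. It was at 7.39, 7.34, 7.42, 7.45 and 7.30 in Dp5/Dp1 replicates 1 to 5, against 7.37, 7.40, 7.48, 7.25 and 7.32 in controls. The groups overlapped, and both the highest and the lowest array were controls. The log2 difference was 0.02 ± 0.05 (SE, adjusted p = 0.964). Its neighbour Paics (chromosome 5, 76951302 to 76967509), which joins carboxylation with aspartate addition in 1 protein, was at 10.99, 10.85, 10.85, 10.87 and 10.82 in Dp5/Dp1, against 10.84, 10.87, 10.93, 10.87 and 10.87 in controls. Apart from Dp5/Dp1 replicate 1, which was the highest, the Dp5/Dp1 arrays lay within or just below the control range. The difference was 0.0032 ± 0.04 (SE, adjusted p = 0.992).

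Pfas (chromosome 11, 68985701 to 69008460), which acts between steps catalysed by Gart, was at 7.80, 7.73, 7.80, 7.79 and 7.90 in Dp5/Dp1 and at 7.84, 7.70, 7.84, 7.83 and 7.93 in controls. All Dp5/Dp1 values fell inside the control range, and the difference was -0.02 ± 0.04 (SE, adjusted p = 0.945). Adsl, adenylosuccinate lyase (chromosome 15, 80948490 to 80970947), acts on the way to IMP and again on the way from IMP to AMP. It was at 8.88, 8.77, 8.68, 8.66 and 8.68 in Dp5/Dp1, against 8.67, 8.72, 8.76, 8.69 and 8.66 in controls. Dp5/Dp1 replicates 1 and 2 were its highest arrays and the other 3 sat at the low end of the controls. The difference was 0.04 ± 0.04 (SE, adjusted p = 0.917).

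Atic, which carries out the last pair of steps to IMP (chromosome 1, 71557156 to 71579403), had the largest difference after Gart, and it did not pass the test. It was at 9.64, 9.63, 9.63, 9.51 and 9.52 in Dp5/Dp1, against 9.45, 9.43, 9.69, 9.48 and 9.42 in controls. Control replicate 3 held the highest value of all 10 arrays, and the other 4 controls lay below all Dp5/Dp1 arrays. The difference was 0.09 ± 0.05 (SE, 1.07-fold, adjusted p = 0.836). In the main fit its limma unadjusted p was 0.101. Without control replicate 3 the difference was 0.14 (limma unadjusted p = 0.00349, adjusted p = 0.461). With weighted arrays it was 0.11 (limma unadjusted p = 0.0462, adjusted p = 0.693), and the intervals of both these fits lay above 0. In a fit with covariates for choroid plexus and habenula it was 0.05 (adjusted p = 0.871).

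Gmps, GMP synthetase (chromosome 3, 63963633 to 64021554), was at 10.31, 10.43, 10.49, 10.52 and 10.47 in Dp5/Dp1, against 10.46, 10.47, 10.48, 10.52 and 10.41 in controls. Dp5/Dp1 replicate 1 was the lowest array, and the difference was -0.03 ± 0.04 (SE, adjusted p = 0.933). Hprt, the salvage enzyme (chromosome X, 52988078 to 53021660), was at 10.70, 10.68, 10.78, 10.73 and 10.70 in Dp5/Dp1, against 10.66, 10.65, 10.70, 10.69 and 10.75 in controls. The ranges overlapped, and the difference was 0.03 ± 0.03 (SE, adjusted p = 0.902).

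Over the 7 partners of Gart, 5 had a higher and 2 a lower mean in Dp5/Dp1. Their median log2 difference was 0.02, against 0.0019 over all genes tested. By limma 0 were called in either direction (0.201% of all genes higher, 0.00502% lower), and at an unadjusted p under 0.05 there were also 0 (6.06% of all genes). The rank method of the study passed 0 of the 7 (5.06% of all genes). Atic fell just short of its limit, with a two-sided rank-method p of 0.0512. No partner had groups that did not overlap, which held for 1.08% of all genes, 0.321% with all 5 Dp5/Dp1 arrays below the controls. In the main fit all 7 intervals of the difference included 0. The highest upper bound, that of Atic at 0.21, lay below the lower bound of Gart. A shift of up to that size remains possible for Atic, and smaller ones within their intervals for the others.

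**Figure D2:**
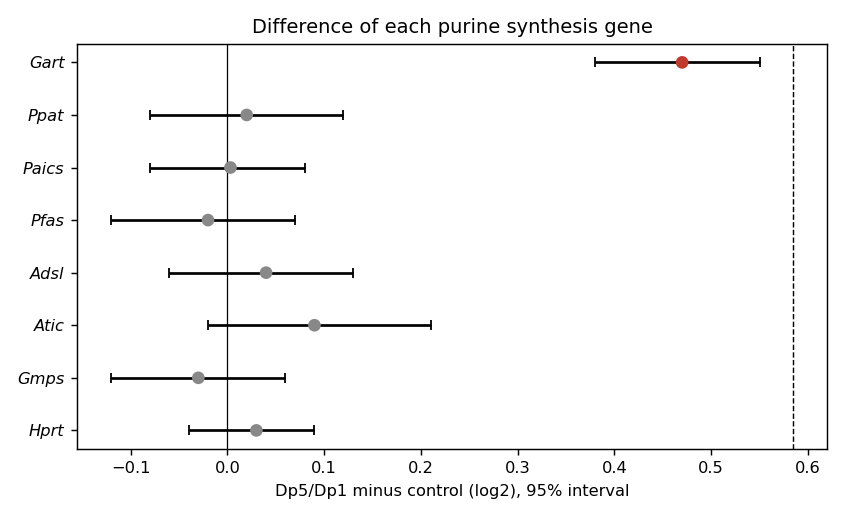
Log2 difference, Dp5/Dp1 minus control (x axis), of each purine gene with its 95% interval from limma (n = 5 arrays per group); the gene in red passed the test, and log2 of 1.5 is drawn dashed. Gart stands at 0.47, and the intervals of the other 7 genes include 0.

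Array by array, Gart was set apart from its partners. On the 5 Dp5/Dp1 arrays Gart was 0.40 to 0.54 above its control mean, whereas the mean over the 7 partners, each set against its own control mean, lay between 0.00 and 0.04. On the control arrays Gart ranged from -0.08 to 0.07 and the partners from -0.03 to 0.06. Control replicate 3 had all 8 genes above the control mean, and it was the highest control for Ppat, Paics, Adsl and Atic. Dp5/Dp1 replicate 1 was the highest Dp5/Dp1 array for Gart, Paics, Adsl and Atic and the lowest for Gmps.

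**Figure D3:**
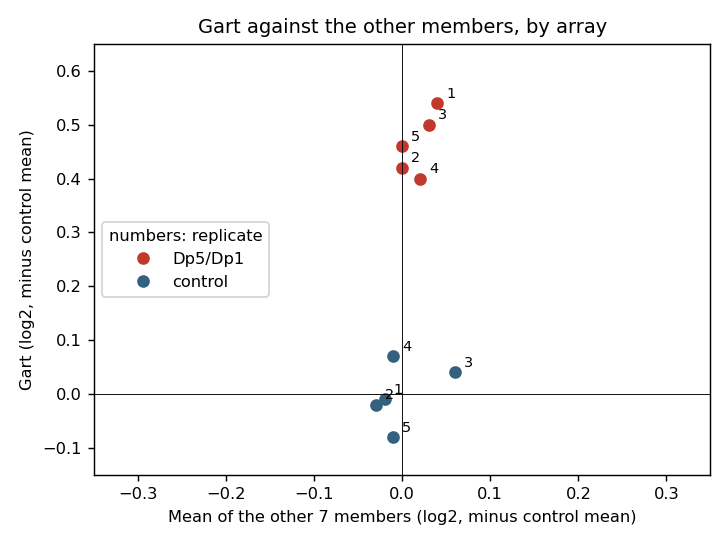
Gart (y axis) and the mean of the other 7 purine genes (x axis) on each array, in log2 units minus the control mean; red points are Dp5/Dp1 and blue points control arrays, numbered by replicate. The groups part along the Gart axis only, at 0.40 to 0.54 for Dp5/Dp1 and -0.08 to 0.07 for control.

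Within groups the purine genes did not all vary together. After each group mean was taken away, the 28 pairs of genes had correlations from -0.72 to 0.80 over the 10 arrays, with a median of 0.03. Gart, Paics, Adsl and Atic, singled out after their values were seen, were positively correlated in all 6 of their pairs, from 0.48 for Gart and Paics to 0.80 for Paics and Adsl. Adsl and Gmps were the most opposed pair (-0.72). These values share the arrays. Dp5/Dp1 replicate 1 was the highest Dp5/Dp1 array for each of those 4 genes, and it was the farthest array from its group mean for Paics, Adsl and Gmps. Among the purine genes Gart correlated most with Atic (0.59) and Adsl (0.53). By this measure Atic ranked 1247 and Adsl 1862 among all genes.

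The genes most like Gart across the 10 arrays were other genes that rose. By Pearson correlation, which here mostly reflects the gap between the groups, they were Ifnar2 (0.996), Get1 (0.977), Rcan1 (0.974), Gpnmb (0.973) and Il10rb (0.970). All but Gpnmb, a glycoprotein gene on chromosome 6, lie in the duplicated segments. With the group means taken away, the order changed to Shpk, a kinase of sedoheptulose (0.950), Tafa5, a secreted peptide (0.947), 3110082J24Rik (0.937), Ndc1 of the nuclear pore (0.934) and Slc3a2, a chain of amino acid transporters (0.929). None of these 5 differed between the groups at an adjusted p under 0.05 (0.824 to 0.983), and no purine gene was among them.

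The nearest chromosomal neighbours of Gart all had higher means in Dp5/Dp1 as well, and 6 of 10 passed the test. Between Cyyr1 and Clic6, the Dp5Yah segment with Cyyr1 inside its bounds, limma called 25 of 82 genes, all higher. The log2 differences of these 25 ran from 0.27 to 0.66 with a median of 0.41, and the median over all 82 genes was 0.05. The 82 were taken by position, without a filter on level. The paper reports that a stretch of this segment with a keratin cluster was not overexpressed in any model that carried it. Over all 82 genes Gart had the seventh largest difference. Son, an RNA splicing factor whose start lies beside that of Gart, was at 10.25, 10.25, 10.08, 10.34 and 10.20 in Dp5/Dp1, against 9.89, 9.91, 9.94, 9.92 and 9.99 in controls. The groups did not overlap, and the difference was 0.29 ± 0.04 (SE, adjusted p = 0.0179), with an interval of 0.20 to 0.39 that meets that of Gart at its edge. On the other side Dnajc28, a J-domain protein gene, had a difference of 0.41 ± 0.09 (SE, adjusted p = 0.179), with groups that did not overlap, and Tmem50b one of 0.49 ± 0.12 (adjusted p = 0.447). Ifngr2, a subunit of the interferon gamma receptor, rose by 0.43 ± 0.05 (SE, adjusted p = 0.00179). Donson, a gene of DNA replication whose span overlaps that of Son, had 0.36 ± 0.10 (SE, adjusted p = 0.496) and the predicted gene Gm10785, which overlaps Donson and Cryzl1, 0.45 ± 0.13 (SE, adjusted p = 0.599).

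**Figure D4:**
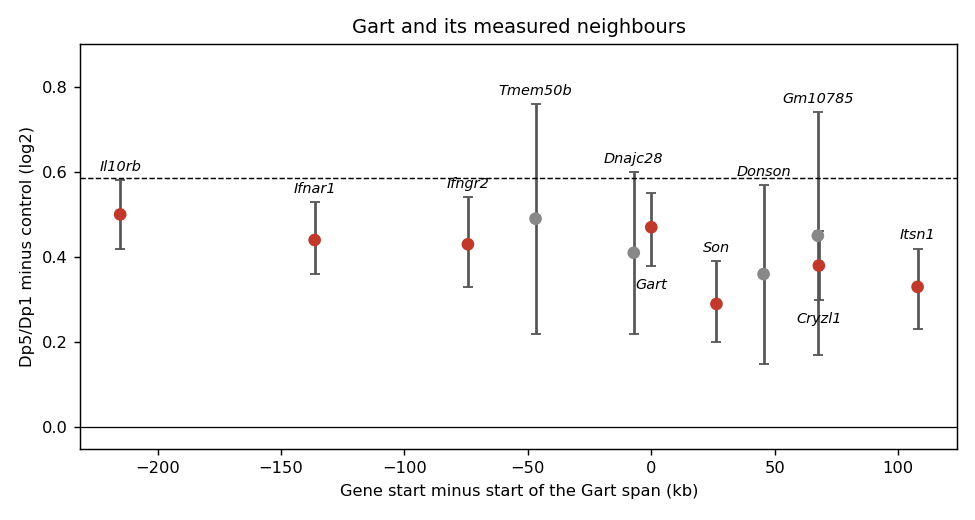
Log2 difference, Dp5/Dp1 minus control (y axis), of Gart and the 5 nearest measured genes on each side, by the distance of each gene's first base on chromosome 16 from that of Gart in kb (x axis), with 95% intervals from limma; genes in red passed the test, and log2 of 1.5 is drawn dashed. All 11 genes lie above 0, from 0.29 for Son to 0.50 for Il10rb.

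Enzymes that feed purine synthesis or branch from it did not pass the test. Of the 5 measured, Prps1 and Prps2 make PRPP. Prps1 had a log2 difference of 0.03 ± 0.06 (SE, adjusted p = 0.951) and Prps2 of -0.10 ± 0.05 (SE, adjusted p = 0.832). Prps2 was highest in control replicate 1 at 9.93, and the Dp5/Dp1 arrays lay between 9.61 and 9.70. The synthetase-associated proteins Prpsap1 (0.0086 ± 0.05, adjusted p = 0.986) and Prpsap2 (0.08 ± 0.06, adjusted p = 0.862) did not pass the test either. Impdh1, the paralogue of Impdh2, was at 8.30, 8.19, 8.15, 8.23 and 8.27 in Dp5/Dp1, against 8.13, 8.15, 8.18, 8.11 and 8.19 in controls. The ranges overlapped, and its difference of 0.08 ± 0.03 (SE) had an unadjusted p of 0.0439 and an adjusted p of 0.818.

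In the wider nucleotide pathways no gene was called by limma. Of the 22 genes of purine salvage and interconversion measured, 13 had a higher and 9 a lower mean, and 3 (13.6%) had an unadjusted p under 0.05, against 6.06% of all genes. The lowest p belonged to Nt5c, a nucleotidase (0.11 ± 0.03, adjusted p = 0.64), whose Dp5/Dp1 arrays lay at 9.63 to 9.76 and above all controls at 9.51 to 9.58, and to Ampd2, AMP deaminase (0.10 ± 0.03, adjusted p = 0.734). Among 18 genes of pyrimidine synthesis 0 were called and 0 had an unadjusted p under 0.05, with Ctps2, a CTP synthase (-0.12 ± 0.06, adjusted p = 0.824), and Upp1, uridine phosphorylase (0.15 ± 0.08, adjusted p = 0.826), at the lowest p. Of 9 genes that handle adenosine outside cells or across the membrane, 2 (22.2%) had an unadjusted p under 0.05, both higher, against 6.06% of all genes. The adenosine receptor genes of this list, Adora1, Adora2a, Adora2b and Adora3, were not measured here. Entpd3 (0.11 ± 0.04, adjusted p = 0.806) and Nt5e (0.14 ± 0.06, adjusted p = 0.818), a pair of ectonucleotidases, were these 2.

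One-carbon units on folate supply carbon atoms of the ring, and Gart and Atic use them directly. Of 25 genes of that supply measured, 14 had a higher and 11 a lower mean, with a median difference of 0.01. By limma 0 were called, and 4 (16.0%) had an unadjusted p under 0.05. Shmt2, the mitochondrial enzyme that splits serine into glycine and a one-carbon unit, had the lowest p. It was at 8.25, 8.28, 8.24, 8.23 and 8.07 in Dp5/Dp1, against 7.99, 8.01, 8.09, 7.80 and 8.02 in controls. Only Dp5/Dp1 replicate 5 fell within the control range, and the difference was 0.23 ± 0.06 (SE, 1.17-fold, adjusted p = 0.353). Psat1, an enzyme of serine synthesis, was at 10.44 to 10.53 in Dp5/Dp1, against 10.53 to 10.64 in controls (-0.12 ± 0.03, adjusted p = 0.499). The other genes of this list with an unadjusted p under 0.05, chosen after their values were seen, were Gcsh (0.11 ± 0.03) and Gldc (0.16 ± 0.07) of the glycine cleavage system. Human homologues of Slc19a1, the reduced folate carrier, and Ftcd, a folate-linked enzyme of histidine breakdown, also lie on chromosome 21, but both mouse genes are on chromosome 10 and have 2 copies in Dp5/Dp1. Slc19a1 had a difference of 0.04 ± 0.05 (SE, adjusted p = 0.909) and Ftcd of -0.03 ± 0.04 (SE, adjusted p = 0.931).

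**Figure D5:**
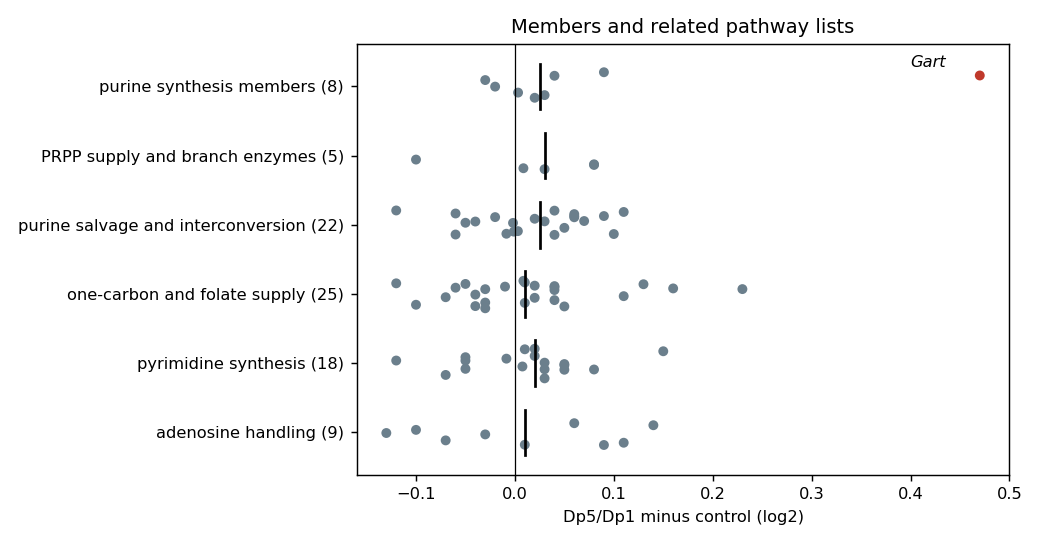
Log2 difference, Dp5/Dp1 minus control (x axis), of the purine genes and of the genes of 5 related lists (rows, number measured in brackets; 1 point per gene, spread vertically for legibility); black bars are medians and red marks an adjusted p under 0.05. Gart at 0.47 is the only red point, and Shmt2 at 0.23 lies farthest from 0 among the rest.

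Over all 5 lists, 0 of 79 genes were called, against 0.206% of all genes, and 10 (12.7%) had an unadjusted p under 0.05, against 6.06% of all genes. Of these, 8 were higher (10.1% of the 79, against 3.39% of all genes) and 2 lower (2.53%, against 2.67%). For 2 of the 79, Nt5c and Gcsh, the lowest Dp5/Dp1 array exceeded the highest control, against 0.762% of all genes. By the rank method of the study, which passed 5.06% of all genes, Shmt2, Gldc, Gcsh and Nt5e passed as higher. Psat1, Ak5 and Ctps2 passed it as lower. The median difference over the 79 was 0.02, against 0.0019 over all genes, and whether the lists differ from other genes was not tested. None of the 79 lies in the duplicated segments.

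Array medians lay between 6.73 and 6.80, and correlations between arrays, across genes, ran from 0.996 to 0.999. Mean levels of 8 hippocampal neuron markers were 10.82 to 10.88 in Dp5/Dp1 and 10.85 to 10.90 in controls. Choroid plexus markers (10 genes, 7.02 to 8.76 in Dp5/Dp1 and 6.93 to 9.15 in controls) and medial habenula markers (7 genes, 6.62 to 8.17 in Dp5/Dp1, with replicates 2 and 5 highest, and 6.56 to 7.10 in controls) varied far more between arrays. With both as covariates the Gart difference was 0.48 (adjusted p = 0.0053), and without Dp5/Dp1 replicates 2 and 5 it was 0.48 (adjusted p = 0.00521). Dividing cells have a high demand for purines, and the mean of 6 of their markers was 6.83 to 6.88 in Dp5/Dp1 and 6.84 to 6.96 in controls. These markers were dim, with a median brightness percentile of 26.5, so a difference in dividing cells could be missed. Within groups Gart moved with the means of 6 astrocyte markers (r = 0.69 over 10 arrays, 10.95 to 11.08 in Dp5/Dp1 and 10.96 to 11.11 in controls) and of 6 microglia markers (r = 0.68, 8.51 to 8.74 in Dp5/Dp1 and 8.58 to 8.68 in controls). Both ranges overlapped between groups, 0 markers of either list were called, and their part in the spread of Gart was not tested. Both lists were picked after the values were seen, as those with the highest correlations. The same correlation was 0.28 for hippocampal neuron, 0.16 for oligodendrocyte and 0.09 for choroid plexus markers. It was -0.09 for dividing cell and -0.14 for medial habenula markers. Levels in whole tissue cannot tell a change in the number of cells of a type from a change in RNA per cell.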

How the data were processed

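Total RNA of 10 hippocampi was labelled (200 ng per the labels) and hybridised, 1 array per mouse. The authors deposited RMA log2 values, that is, background-corrected, quantile-normalized and summarised per probe set, with RMA, limma and mm10 named in the submitters' processing notes. Versions are not given in the sources used here. RMA draws differences of dim probe sets towards 0, and the number of arrays limits the precision. Of 35556 probe sets, 21789 had 1 gene symbol, 1621 several and 12146 none in the platform annotation. Symbols were updated by Entrez ID (21698 found in RefSeq, GRCm38), and the brightest probe set was read for each of 19938 genes.

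Groups came from the condition label. Differences were tested with limma 3.58.1 in R 4.3.3 (linear model and empirical Bayes moderation, two-sided) and adjusted by Benjamini-Hochberg over all 19938 genes. "Called", "rose" and "overexpressed" refer to an adjusted p under 0.05. Lists are described by counts and medians, without a set test. Genes named are the members, the PRPP list, the 2 genes of lowest p in each other list (none held a called gene), Slc19a1, Ftcd, 3 neighbours on each side of Gart and the 5 genes most like it by each measure. Gcsh, Gldc, Ak5, which passed the rank method, Dyrk1a, which checks the second segment, and Cryzl1, which overlaps a neighbour, were named outside this rule. The members and lists were chosen with earlier results of these data known. The rank method of the study (FCROS) was rewritten from its description. Scripts were tested on simulated data, and the alternatives tried stand in the closing section.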

Additional observations from a re-analysis of the deposited data

Results flagged for a closer look

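In a group of 5 arrays, an array was noted when its gap to the nearest other array took up more of the group's range than Dixon's 95% limit for 5 samples. Of 78 gene and group combinations checked, 3 were noted, and chance gives about 1 in 20. Atic in control replicate 3 was at 9.69, with the next control at 9.48, and without that array the log2 difference was 0.14. Nt5c in Dp5/Dp1 replicate 2 was at 9.76, with the next array at 9.65, and without it the difference was 0.09. Shmt2 in Dp5/Dp1 replicate 5 was at 8.07, with the next array at 8.23, and without it the difference was 0.27. The source of these values was not tested.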

How the results depend on the processing

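Gart was called under all 21 alternatives run, with a log2 difference of 0.45 to 0.48 and a limma adjusted p of 0.000117 to 0.0107 (0.0107 with the replicate number as a block, where the difference was 0.47), and it remained the 1 purine gene called. With 1 array left out its difference ran from 0.45 to 0.48. No partner was called under any of them. Each purine gene measured had 1 probe set, so the alternative probe set rules could not change its difference. The sign of partners near 0 turned when 1 array was left out: the ranges were -0.013 to 0.046 for Ppat, -0.026 to 0.017 for Paics, -0.056 to 0.0012 for Pfas, -0.00086 to 0.055 for Adsl and -0.047 to 0.0043 for Gmps. Paics was also at -0.0025 when arrays were centred on genes outside the segments and at -0.011 by the rank method. Over all genes the calls numbered 41, against 26 with the replicate block, 27 with choroid plexus and habenula covariates, 21 without Dp5/Dp1 replicates 2 and 5, 29 to 39 with 1 array left out and 1008 by the rank method. The rank method cuts the tails of a normal curve fitted to its own scores. The number of genes it passes therefore follows mostly from where those cuts lie, and is not comparable with the limma counts. The other alternatives left out the dimmest 40% of genes, renewed the quantile normalization or used other probe set rules. A variance trend on intensity, weighted arrays and an adjusted p under 0.1 were also tried. The cause of the changes among the limma fits was not tested. Arrays with the same replicate number did not consistently deviate together (correlations from -0.353 to 0.292 over the 5 pairs), and the main fit did not pair them. These correlations also carry the spread of choroid plexus and habenula content, so they cannot tell whether the numbers pair the mice.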
